A study of Mus musculus with 6 samples.

Results

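Decorin and 7 relatives of it were examined here as 1 gene family, the small leucine-rich proteoglycans, in mouse embryonic fibroblasts (MEFs) with and without the RNase H2 subunit gene Rnaseh2b. The 8 members (Dcn, Bgn, Aspn, Lum, Fmod, Prelp, Omd and Ogn) were taken by name from 10160 genes tested. The family was chosen because Dcn was among the genes past the threshold in the very contrast that is described here. The differences between genotypes given for the members are therefore a description, and their p-values support nothing. All 8 members had a probe above background, in 14 of their 15 probes.

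RNA from 2 Rnaseh2b-/- and 4 Rnaseh2b+/+ MEF lines was hybridised to Illumina MouseWG-6 v2 arrays, 1 array for each line, to ask what the loss of RNase H2 changes in gene expression. Each line was grown from 1 whole C57BL/6J embryo at E10.5. The null allele, Rnaseh2b tm1d, lacks exon 5, and all 6 lines, controls included, were also p53-/- (Trp53 tm1Tyj), since embryos without Rnaseh2b die early. Cells were kept in 3% oxygen, matched for passage, and lysed when confluent, 20 h after fresh medium. The 2 Rnaseh2b-/- lines had been picked in the study from a larger set for their stronger interferon-stimulated gene response, so they do not stand for all such lines. A MEF line from a whole embryo is a mixture of cells, and in such bulk RNA fewer cells of a type and less RNA per cell cannot be told apart.

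Small leucine-rich proteoglycans are secreted proteins with a horseshoe-shaped core of leucine-rich repeats, most of which carry chains of chondroitin, dermatan or keratan sulfate. They coat collagen fibrils in connective tissue and set the width and spacing of these fibrils, and several of them also bind growth factors such as TGF-beta. Class I holds decorin, biglycan and asporin, class II holds lumican, fibromodulin, PRELP and osteomodulin, and class III holds osteoglycin. Fibroblasts are the best known source of decorin and lumican.

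Many of these genes lie beside each other. In the RefSeq gene order, no other protein-coding gene separated Dcn from Lum on chromosome 10, Prelp from Fmod on chromosome 1, or Aspn, Omd and Ogn from one another on chromosome 13, while Bgn lies on the X chromosome. The proximal promoters of the chromosome 13 trio are shown because 3 neighbouring genes of 1 family are compared below, and they are the 250 bases before each start site in RefSeq for GRCm38.p6, where 6 of the 8 members had an entry (Dcn and Lum did not). Capitals mark TATAAA, searched on both strands, so that TTTATA is its reverse complement.
Aspn, chr13:49544193-49544442, plus strand: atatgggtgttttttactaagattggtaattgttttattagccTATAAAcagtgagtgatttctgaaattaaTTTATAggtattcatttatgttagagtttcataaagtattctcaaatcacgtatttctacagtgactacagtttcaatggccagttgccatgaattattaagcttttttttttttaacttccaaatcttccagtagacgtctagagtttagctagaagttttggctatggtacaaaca
Omd, chr13:49582212-49582461, plus strand: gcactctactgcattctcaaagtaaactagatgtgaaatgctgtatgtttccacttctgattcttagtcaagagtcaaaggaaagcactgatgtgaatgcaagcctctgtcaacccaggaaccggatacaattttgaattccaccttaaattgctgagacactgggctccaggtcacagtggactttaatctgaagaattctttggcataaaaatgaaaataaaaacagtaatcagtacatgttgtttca
Ogn, chr13:49607765-49608014, plus strand: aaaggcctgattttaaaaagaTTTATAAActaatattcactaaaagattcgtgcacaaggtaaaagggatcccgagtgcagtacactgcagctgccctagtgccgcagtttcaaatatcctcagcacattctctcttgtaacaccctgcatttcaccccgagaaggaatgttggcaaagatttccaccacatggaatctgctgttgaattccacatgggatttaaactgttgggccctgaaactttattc
Aspn and Ogn held the motif and Omd did not, nor did Prelp, Fmod or Bgn, and 12.4% of the 32851 promoters in the table held it. None of the 6 promoters held GAAANNGAAA, the core letters of an interferon-stimulated response element, on either strand, against 2.98% of all promoters. A match in such a window is a description of the letters and does not show a site in use.

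Between 15519 and 16114 probes were above background on each array. The median intensity before normalization was 108 and 115 on the Rnaseh2b-/- arrays and 124 to 129 on those of the controls, so both Rnaseh2b-/- arrays were dimmer than every control. The targeted gene went with the labels, although its probes were not placed relative to the deleted exon. The normalized log2 signals of its probes were 5.34 to 5.60 in the Rnaseh2b-/- lines and 9.01 to 9.87 in the controls. One probe was above background in neither Rnaseh2b-/- line and the other in 1 of 2, so the log2 fold change of Rnaseh2b, -4.01 (limma, adjusted p = 0.00121), is set against signal near background. Of the 14 fibroblast markers tested, 13 were above background on all 6 arrays, and their summed log2 level was 15.1 and 15.3 in the Rnaseh2b-/- lines against 15.4 to 15.5 in the controls. By this sum both Rnaseh2b-/- lines were below every control. Of the 14 markers, 12 had a negative log2 fold change, beside 5340 of all 10160 genes. Markers of some other cells varied more between lines. The summed log2 level of 16 muscle markers was 16.1 in Rnaseh2b-/- replicate 1, 11.7 in replicate 2 and 10.4 to 11.6 in the controls.

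Decorin RNA was higher in both Rnaseh2b-/- lines than in any control line, and it was the only member for which this was so. The mean normalized log2 signal of its 3 probes above background was 11.30 and 11.82 in Rnaseh2b-/- replicates 1 and 2, and 10.00, 9.95, 9.24 and 9.38 in Rnaseh2b+/+ replicates 1 to 4. The groups did not overlap, and the gap between the lowest Rnaseh2b-/- line and the highest control was wider than the spread among the controls. Replicate 1 lay 3.15-fold and replicate 2 4.53-fold above the control mean. The control mean was 9.64 ± 0.39 (SD, n = 4) and the Rnaseh2b-/- mean 11.56 ± 0.37 (SD, n = 2). The log2 fold change was 1.92 (standard error 0.28, 95% interval 1.27 to 2.57), or 3.78-fold, with an adjusted p of 0.0459 by limma with Benjamini-Hochberg adjustment over 10160 genes. That value lay just inside the threshold of 0.05 that drew attention to the gene. Ordered by p, Dcn was number 47 of the 52 genes past it, the last of which had an adjusted p of 0.0483 and the first gene beyond it 0.0503. Among the 36 higher genes it was number 16 by fold.

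Every probe of Dcn above background showed this difference. Probe ILMN_2596346 read 12.31 and 12.83 in the Rnaseh2b-/- lines and 10.23 to 10.90 in the controls (log2 fold change 1.98). Probe ILMN_2604695 read 8.18 and 8.69 against 5.94 to 6.83 (log2 fold change 2.02). Probe ILMN_2747959 read 13.40 and 13.95 against 11.55 to 12.28 (log2 fold change 1.75). These 3 probes put the 6 lines at nearly the same relative distances, and no pair of them had a Pearson correlation under 0.998 over the lines. Tested probe by probe, the adjusted p was 0.0372, 0.0454 and 0.0541, so the last, which was also the brightest, missed the threshold. The remaining probe, ILMN_1254458, is annotated to another transcript record of Dcn and was not above background on any array. It read 4.94 and 4.97 in the Rnaseh2b-/- lines and 4.37 to 4.53 in the controls, and no fold is given for it.

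**Figure D1:**
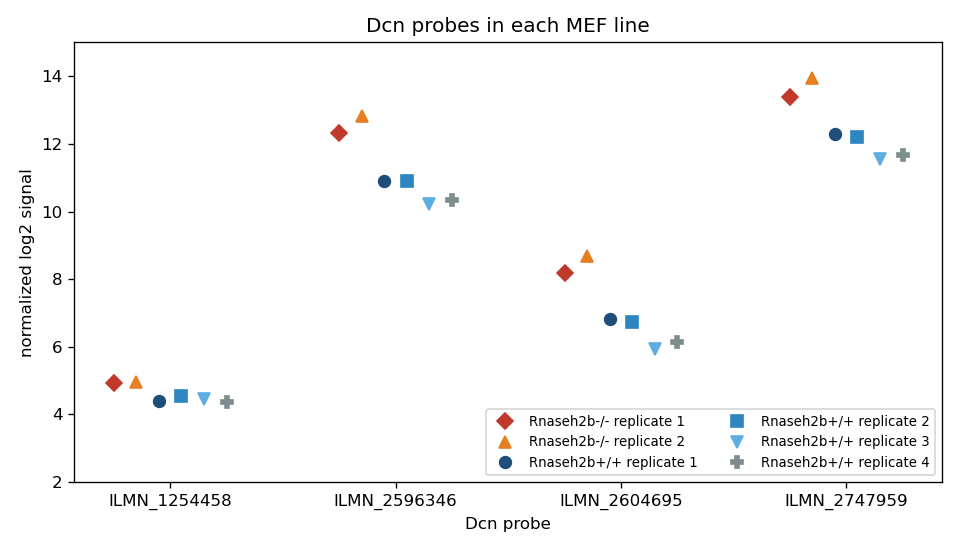
Normalized log2 signal (y axis) of the 4 Dcn probes (x axis) in each of the 6 lines. In the 3 probes above background both Rnaseh2b-/- lines exceed every control, whereas ILMN_1254458 stays between 4.37 and 4.97. Heights are not compared between probes.

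The call on Dcn was lost in most fits that left out a line, while the direction was kept. With each line left out in turn the log2 fold change ran from 1.66 to 2.19. The adjusted p was 0.103 and 0.0579 without Rnaseh2b-/- replicates 1 and 2, fits in which the spread came from the controls alone and the lone mutant line was assumed to vary like them. It was 0.132, 0.117 and 0.155 without Rnaseh2b+/+ replicates 2, 3 and 4. Leaving out Rnaseh2b+/+ replicate 1, the control with the highest Dcn, gave 0.0299, the only such fit in which the gene stayed past the threshold.

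Across the family, 1 of 8 members passed the threshold upwards and none downwards, where 0.354% of all genes were higher and 0.157% lower. Since Dcn brought the family into view, that count carries no information. At an unadjusted p under 0.05, 1 member (Dcn) was higher and 1 (Omd) lower, beside 7.99% and 9.13% of all genes, and under median scaling of the arrays these numbers over all genes shifted from 812 higher and 928 lower to 526 and 1678. One member had both Rnaseh2b-/- lines above all controls and none had both below, against 12.5% and 15.1% of genes. The median log2 fold change of the 8 members was -0.22, and that of all genes tested -0.02. Among the other 7 members the adjusted p ranged from 0.267 to 0.915, and every 95% interval except that of Omd included 0.

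**Figure D2:**
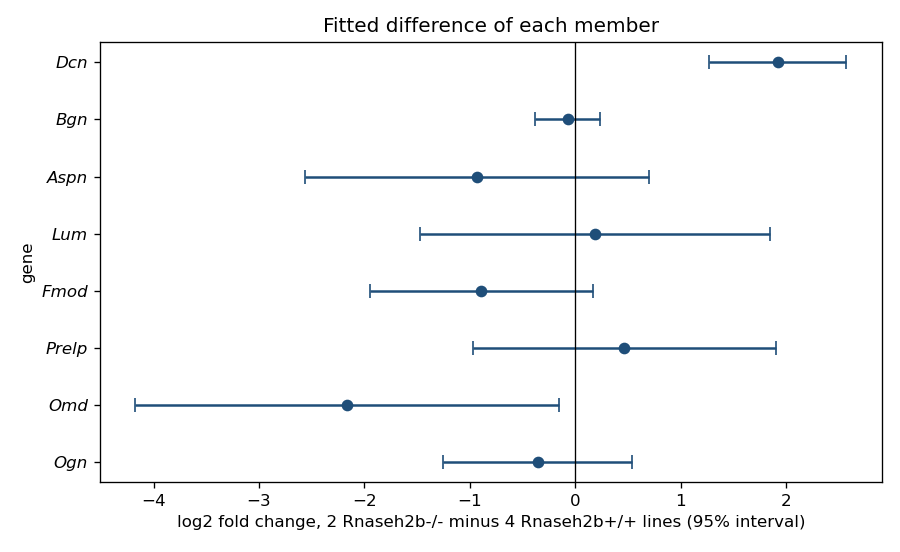
Log2 fold change of each member, 2 Rnaseh2b-/- minus 4 Rnaseh2b+/+ lines (x axis), with its 95% interval from the moderated fit. Dcn lies at 1.92 and Omd at -2.16, and the interval of Bgn, from -0.38 to 0.24, is the narrowest.

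Biglycan, the closest relative of decorin and, when released from the matrix, a ligand of Toll-like receptors, showed no difference beyond the spread of the controls. Its probe read 14.69 and 14.71 in the Rnaseh2b-/- lines and 14.64, 14.76, 14.80 and 14.89 in the controls. Both Rnaseh2b-/- lines fell within the range of the controls. The log2 fold change of Bgn was -0.07 (standard error 0.13, 95% interval -0.38 to 0.24). The probe was between the 13th and the 61st brightest of 45281 on its array, close to the highest normalized log2 signal of any probe (15.01), so a rise of the size seen for Dcn could not have been read from it. Asporin, the third member of class I, binds collagen and restrains TGF-beta. Its Aspn probe read 5.17 and 7.01 in the Rnaseh2b-/- lines and 7.25, 8.17, 6.79 and 5.90 in the controls. Rnaseh2b-/- replicate 1 was the lowest of all lines and was not above background, while replicate 2 lay inside the control range (log2 fold change -0.94, 95% interval wide enough to include 0).

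The class II genes varied more between lines of 1 genotype than between the genotypes. Lumican, which shapes collagen fibrils in the cornea and skin, read 6.29 and 8.59 in the Rnaseh2b-/- lines and 8.29, 7.41, 6.86 and 6.47 in the controls. The 2 Rnaseh2b-/- lines enclosed the whole control range and stood 4.93-fold apart. The log2 fold change of Lum was 0.18 (standard error 0.70), and it ran from -0.97 without Rnaseh2b-/- replicate 2 to 1.34 without replicate 1. Prelp, whose product anchors basement membranes to connective tissue, gave the same picture. It read 9.70 and 11.61 in the Rnaseh2b-/- lines and 9.82, 10.65, 10.92 and 9.37 in the controls. Replicate 2 was above every control and replicate 1 near the lowest of them (log2 fold change 0.47, standard error 0.61).

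Fibromodulin, a collagen-binding protein that is prominent in tendon, ran the other way. Fmod read 6.58 and 5.31 in the Rnaseh2b-/- lines and 7.14, 7.30, 6.88 and 6.03 in the controls. Replicate 2 was the lowest of all lines and replicate 1 lay within the controls, with a log2 fold change of -0.89 (standard error 0.45). Osteomodulin, a keratan sulfate proteoglycan first known from bone, had the lowest fitted value of the family. Omd read 6.14 and 8.49 in the Rnaseh2b-/- lines and 7.91, 10.45, 10.19 and 9.37 in the controls. The groups overlapped, because Rnaseh2b+/+ replicate 1 was below Rnaseh2b-/- replicate 2. Replicate 1 of the Rnaseh2b-/- lines was 10.1-fold and replicate 2 1.98-fold below the control mean, 5.12-fold apart. The log2 fold change was -2.16 (standard error 0.85, 95% interval -4.17 to -0.15, adjusted p = 0.267 by limma), and it went from -3.35 to -0.99 as single lines were left out.

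Osteoglycin, also called mimecan, is the class III member. The mean of its 3 probes was 9.58 and 10.75 in the Rnaseh2b-/- lines and 10.30, 11.13, 10.48 and 10.18 in the controls. Replicate 1 was below every control and replicate 2 within them (log2 fold change -0.36, standard error 0.38), and without replicate 1 the value turned to 0.23. The Ogn probes were less alike than those of Dcn, with a lowest pairwise correlation of 0.61 over the 6 lines, against 0.994 for Lum and 0.852 for Fmod. Each of the 3 gave a negative log2 fold change, from -0.47 to -0.20.

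Most members varied more among the control lines than most genes did. The standard deviation of the 4 Rnaseh2b+/+ lines, a measure that does not use the Rnaseh2b-/- lines, had a median of 0.64 over the members on the log2 scale and of 0.19 over all genes tested. Above the 90th percentile of all genes, which was 0.43, lay 5 members (Aspn, Lum, Fmod, Prelp and Omd), and Ogn and Dcn came next, with 89.8% and 86.7% of genes below them. For Bgn, whose probe was near the top of the scale, 16.5% of genes had a smaller standard deviation, and neither this nor its gap between the Rnaseh2b-/- lines, given next, is read as stability. Omd was the most variable member, with 99.6% of genes below it. A wide spread was not particular to the members. Genes outside the 8 also lay above the 90th percentile, for example Podn (0.55), Scx (0.76) and Esm1 (1.43).

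The 2 Rnaseh2b-/- lines differed from each other in the same genes. All members but Fmod read higher in replicate 2 than in replicate 1, that is 7 of 8, beside 51.5% of all genes. The gap between these lines was larger than in 95.7% of genes or more for Aspn, Lum, Fmod, Prelp, Omd and Ogn. It was larger than in only 79.6% for Dcn and 3.99% for Bgn, whose 2 values were 0.02 apart. This order of the lines was not particular to the family. Fibroblast markers had a mean log2 distance from the control mean of -0.49 in replicate 1 and 0.03 in replicate 2. For the collagen genes tested these were -0.70 and -0.39. Muscle markers had the reverse order, with 4.84 and 0.75.

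The chromosome 13 trio followed one order at its ends. For Aspn, Omd and Ogn alike, Rnaseh2b+/+ replicate 2 was the highest line and Rnaseh2b-/- replicate 1 the lowest. Over the 6 lines, Pearson's r was 0.92 for Aspn and Ogn (Spearman's rho 0.83), 0.79 for Omd and Ogn (rho 0.71) and 0.66 for Aspn and Omd (rho 0.49), given as a description with no test. Without the 2 lines farthest from the median of the first gene named, r was 0.54, -0.08 and -0.53. Leaving out the extremes of a gene narrows its range and tends to lower r. These values therefore cannot decide whether the likeness rested on those lines. The neighbours on the other chromosomes were less alike, with r of 0.37 for Dcn and Lum and of -0.30 for Fmod and Prelp.

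No tested neighbour of Dcn, Fmod, Ogn or Bgn passed the threshold. Of the 10 tested genes nearest to Dcn, family members left out, none was higher and 1 lower at an unadjusted p below 0.05. Over all genes, 7.99% were higher and 9.13% lower at that level. The median log2 fold change of these 10 genes was 0.08. The lower one was Nts, the gene of the peptide neurotensin, which was above background in all controls and in neither Rnaseh2b-/- line, at least 2.66-fold lower (adjusted p = 0.234). Around Fmod, Plekha6 and Chil1 were higher at that level, and neither was above background in any control. Their means were at least 1.05-fold and 1.27-fold higher (limma, adjusted p = 0.0893 and 0.233). Each rested on 1 Rnaseh2b-/- line, since Plekha6 read 5.29 and 5.99 in replicates 1 and 2, and Chil1 6.80 and 5.02. The dimmest detected probes of those 2 arrays read 5.50 and 5.63. No gene near Ogn or Bgn passed an unadjusted p under 0.05.

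Of 10 other small leucine-rich proteoglycan genes on the list, 3 could be tested and none passed the threshold. At an unadjusted p below 0.05, 2 were lower and none higher, beside 9.13% and 7.99% of all genes. Podocan, which has been linked to smooth muscle growth, read 4.83 and 6.12 in the Rnaseh2b-/- lines and 6.16, 7.30, 7.34 and 6.97 in the controls. Both Rnaseh2b-/- lines were below all controls, 1 of them not above background, and the log2 fold change of Podn was -1.47 (standard error 0.44, adjusted p = 0.185). Podnl1, a relative of podocan, read 5.49 and 5.50 against 5.89 to 6.31, also without overlap (log2 fold change -0.57, adjusted p = 0.158). Optc, encoding opticin of the eye and next to Prelp on chromosome 1, was above background in 1 Rnaseh2b-/- line and 3 controls. It read 4.94 and 6.42 against 5.55 to 6.37, with 1 Rnaseh2b-/- line below and 1 above every control (log2 fold change -0.23). Probes for Kera, Epyc, Chad, Ecm2 and Nyx were not above background on any array, and no probe used here was named Tsku or Chadl.

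The family binds collagens, the proteins of the fibrils, and 1 of the collagen genes tested passed the threshold. Of 17 fibril-forming and fibril-associated collagen genes tested, 16 had a negative log2 fold change and 9 had both Rnaseh2b-/- lines below all controls, and the median was -0.54. Over all 10160 genes, 5340 were negative, 15.1% were below all controls and the median was -0.02. The gene past the threshold fell: Col2a1, the main collagen of cartilage, read 7.38 and 7.85 in the Rnaseh2b-/- lines and 9.09 to 9.52 in the controls (log2 fold change -1.71, standard error 0.19, adjusted p = 0.0278 by limma). The call on Col2a1 was lost without Rnaseh2b-/- replicate 1 or any 1 of Rnaseh2b+/+ replicates 2, 3 and 4, when 0 collagens passed. At an unadjusted p under 0.05, 7 collagen genes were lower and none higher, beside 9.13% and 7.99% of all genes. Of 13 genes for collagen processing and crosslinking, all had a negative value, none passed the threshold, and the median was -0.32. P4ha3, a subunit of prolyl 4-hydroxylase, was at -1.41 (adjusted p = 0.0676), Plod1, a lysyl hydroxylase, at -0.89 (adjusted p = 0.0772), Loxl1, a lysyl oxidase, at -0.45 and P4ha1 at -0.35. The 2 lists hold genes of 1 function and were picked with earlier results known, so these counts are given as they stand.

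**Figure D3:**
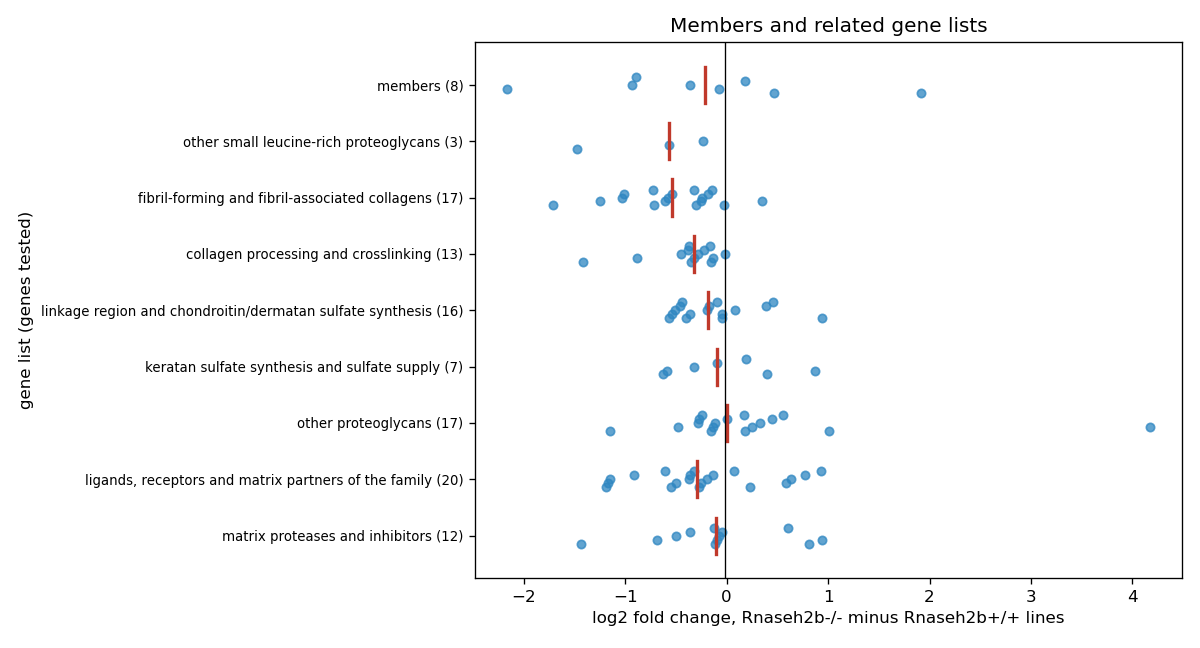
Log2 fold change (x axis) of every tested gene of the family and of 8 related gene lists (y axis, genes tested in brackets). Red bars are medians and the black line is the median of all genes (-0.02). The collagen lists lie mostly below 0, and the point at 4.17 is Esm1.

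Enzymes that build the sugar chains showed no call in either direction. Of 16 genes for the linkage region and for chondroitin and dermatan sulfate, 1 was higher and 4 lower at an unadjusted p below 0.05. The median was -0.19, and over all genes 7.99% were higher and 9.13% lower at that level. The lower ones included B4galt7 at -0.54, B3galt6 at -0.46 and Fam20b at -0.44, which all act on the linker that joins a chain to its core protein. The higher one, the chondroitin sulfotransferase gene Chst13, was above background in 1 Rnaseh2b-/- line and in no control (adjusted p = 0.0776), and no fold is given for it. Of 7 genes for keratan sulfate and sulfate supply, 1 was above and 2 below by the same measure (median -0.10). Chst1, a keratan sulfate sulfotransferase, was at 0.87, Chst2 at -0.63, Papss2, which makes the sulfate donor, at -0.59 and B4galt4 at 0.40.

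Other proteoglycans were split, with 3 of 17 higher and 2 lower at an unadjusted p below 0.05, beside 7.99% and 9.13% of all genes. None was past the threshold, and the median was 0.00. Agrn, the basement membrane proteoglycan agrin, read 11.02 and 10.81 in the Rnaseh2b-/- lines and 9.60 to 10.18 in the controls (log2 fold change 1.01, adjusted p = 0.0772). Cspg4, also called NG2, read 5.88 and 5.58 against 6.60 to 7.30 (log2 fold change -1.15, adjusted p = 0.0776). It was above background in only 1 Rnaseh2b-/- line, so the fold is set partly against signal near background. Esm1, encoding the secreted endothelial proteoglycan endocan, had the widest difference of the list, 10.99 and 11.01 against 8.95, 6.12, 5.90 and 6.34 (log2 fold change 4.17, standard error 0.81, adjusted p = 0.0814). Rnaseh2b+/+ replicate 1 was far above the other controls for that gene. Cd44, a hyaluronan receptor that can carry such chains, was at -0.48 (adjusted p = 0.179).

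Ligands, receptors and matrix partners of the family gave 3 of 20 genes higher and 6 lower at an unadjusted p below 0.05. The shares of all genes at that level were 7.99% and 9.13%. None of the 20 was past the threshold, and their median was -0.29. Thbs1, the matrix protein thrombospondin 1, read 8.84 and 9.23 in the Rnaseh2b-/- lines and 10.01 to 10.504 in the controls, a log2 fold change of -1.19 (adjusted p = 0.0576). Tnxb, the collagen-binding tenascin X, was above background in no control and was at least 1.18-fold higher (adjusted p = 0.0608). Lrp1, an endocytic receptor that takes up decorin, was at 0.77 (adjusted p = 0.127), and Ccn2, a growth factor that decorin binds, was at -0.50 (adjusted p = 0.133). Of 12 matrix proteases and inhibitors, 1 was higher and 1 lower at that level (median -0.10). Mmp13, a collagenase above background in no control, was at least 1.37-fold higher (adjusted p = 0.157), Htra1, a secreted serine protease, was at -0.69, Mmp14 at -0.50 and Mmp9 at 0.60.

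The genes most like Dcn over the 6 lines were a mixed set. By Pearson's correlation among all genes tested, those nearest to it were Colec11 (0.997), a collectin, Pdcd11 (0.997), a factor of ribosome assembly, Ndufb9 (0.993), a subunit of respiratory complex I, Sfxn4 (0.993), a mitochondrial protein, and Trim21 (0.992), an intracellular antibody receptor. Those running most opposite were Dpagt1 (-0.993), the enzyme that starts N-glycosylation, Mid2 (-0.989), Stxbp4 (-0.988), Pomt1 (-0.987) and Acp1 (-0.986). None of these 10 genes is a collagen or a proteoglycan gene. They were picked as the extremes of 10160 genes over 6 points, and Colec11 was above background in no control.

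Markers of some other cell types were higher in the same lines as Dcn, and those of others were not. All 5 mesothelial markers tested (Upk3b, Msln, Lrrn4, Upk1b and Krt19) read above every control in each Rnaseh2b-/- line, none past the threshold and 5 at an unadjusted p under 0.05. Their summed log2 level was 12.8 and 11.7 in the Rnaseh2b-/- lines and 10.3, 9.78, 7.65 and 9.25 in Rnaseh2b+/+ replicates 1 to 4. That put the 4 controls in the same order as Dcn did, while the 2 Rnaseh2b-/- lines were in the opposite order. The epithelial, muscle and neural sums gave the same orders, so this was not particular to mesothelial markers. Of 8 epithelial markers tested, 6 were above all controls, with a summed log2 level of 11.8 and 10.53 against 8.42 to 9.27, and Epcam was not above background on any array. Of 16 muscle markers, 13 were above all controls. Their mean log2 distance from the control mean was 4.84 in Rnaseh2b-/- replicate 1 but 0.75 in replicate 2, against 0.56 in Rnaseh2b+/+ replicate 1. Over all genes, 12.5% were above all controls and 7.99% were higher at an unadjusted p under 0.05. The neural sum was also above all controls in both Rnaseh2b-/- lines (9.81 and 8.54 against 7.78 to 8.45). So was that of bone, by little (7.6149 and 7.5035 against 7.1135 to 7.4983). The 2 tendon markers tested, Scx and Mkx, had a summed log2 level of 8.91 and 8.36 against 8.39 to 10.1. The smooth muscle sum was below all controls (12.48 and 12.36 against 12.64 to 12.96), as was the fibroblast sum given above. Sums of cartilage, endothelial and blood markers overlapped those of the controls. The part of these cell types in the values of Dcn and its relatives was not tested.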

How the data were processed

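Bead intensity of 6 MEF lines was used as deposited, neither background-corrected nor normalized, with the detection p-value that the authors deposited for each probe. The authors also deposited log2 values after neqc, used here only as an alternative. They differed from the values computed here by at most 0.109.

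neqc (limma 3.58.1, R 4.3.3) estimated background from detection p-values, used an offset of 16 and quantile normalization and returned log2 signal. Probes with 1 gene symbol in the platform annotation and a detection p under 0.01 on at least 1 array were averaged by gene, which left 10160 genes. lmFit and eBayes compared 2 with 4 lines (4 residual and 3.07 prior degrees of freedom), with Benjamini-Hochberg adjustment and a threshold of 0.05. The code was tested on simulated data. The number of arrays limits the precision. Whether lines share litters or BeadChips is not given in the sources used here, so batch was not tested.

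Where no array of a group was above background, the fold is a lower limit: on each dim array the gene took its own signal or that of the dimmest detected probe, whichever was higher, and the mean of the brighter group was set against their mean. A summed marker level is log2 of the sum of linear signals. Members, gene lists and marker lists were chosen with earlier results of these data known. Named are the members, Rnaseh2b, tested relatives, up to 4 genes of each related list (past the threshold by size, otherwise the smallest p), the 5 genes most and least correlated with Dcn, and neighbours at an unadjusted p under 0.05. Col2a1, passing alone in its list, is the only collagen named. Alternatives were 2 filters, 4 other normalizations, 2 treatments of probes, 2 variance models, a replicate block and each line left out.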

Additional observations from a re-analysis of the deposited data

Results flagged for a closer look

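Among 58 genes and gene list means whose 4 control lines were examined for a sample far from the others, 1 stood out. For Esm1, Rnaseh2b+/+ replicate 1 read 8.95 while the other 3 controls read 5.90 to 6.34, and its gap to the nearest of them was 0.854 of the whole control range. Chance would mark about 2.9 of 58 such groups. No member of the family was marked.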

How the results depend on the processing

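Dcn stayed higher in all 19 alternatives, with log2 fold changes of 1.57 to 2.19, and lost the threshold in 10. These were no filter (1.57, adjusted p = 0.0772), median scaling (1.72, adjusted p = 0.0615), the brightest probe (1.75, adjusted p = 0.0572), probe ILMN_2747959 alone (1.75, adjusted p = 0.0541), the replicate block (1.59, adjusted p = 0.265) and 5 of the 6 fits that left out a line, in which it ran from 1.66 to 2.19. Leaving out the filter brought in the Dcn probe at background and also raised the number of genes tested from 10160 to 19057. The cause of none of these losses was tested. Median scaling moved the median of all genes to -0.16.

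Over all genes, 36 were higher and 16 lower. No filter gave 18 and 9, trended and robust variances 55 and 36, and the replicate block 0 and 0 (448 and 461 at an unadjusted p under 0.05). Genes lower were 27 with detection on at least 2 arrays and 25 with median scaling. With a line left out they ran from 0 to 293 higher and from 1 to 112 lower, both highest without Rnaseh2b-/- replicate 2.

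Nothing in the sample labels says that a replicate number marks a shared litter or batch. Deviations of same-numbered lines correlated at 0.10 and 0.06. With 2 Rnaseh2b-/- lines the deviations of these mirror each other, so such values cannot decide whether numbers mark pairs. With the block, Lum turned to -0.41 and Rnaseh2b stayed at -4.01 (adjusted p = 0.156). 

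With a line left out the log2 fold changes ran from -1.87 to -0.02 for Aspn, -0.13 to -0.03 for Bgn, -1.53 to -0.26 for Fmod, -0.97 to 1.34 for Lum, -0.95 to 0.23 for Ogn, -3.35 to -0.99 for Omd, -0.49 to 1.43 for Prelp and -4.10 to -3.90 for Rnaseh2b. Lum was negative without Rnaseh2b-/- replicate 2 or Rnaseh2b+/+ replicate 4, and Prelp without Rnaseh2b-/- replicate 2. Ogn was positive without Rnaseh2b-/- replicate 1, and Optc ran from -0.98 to 0.52, the latter without that line.

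Partners of the family past the threshold were 1 higher and 1 lower with detection on at least 2 arrays, 1 lower without background correction, with an offset of 50 and with median scaling, and 2 lower with trended and robust variances. Collagens lower were 2 with the brightest probe and 0 with the block, collagen processing genes lower were 2 with trended and robust variances, and 1 other proteoglycan was higher with those variances and with array weights. With a line left out, the counts ran from 0 to 3 for collagens lower, from 0 to 2 for collagen processing genes lower and for partners lower, and from 0 to 1 for partners, other proteoglycans, linkage region genes and keratan sulfate genes higher and for proteases lower.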
